A study of Mus musculus with 21 samples.

Results

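The genes examined here are 10 components of cytosolic bacterial sensing in the mouse colon: the receptors Nod1 and Nod2 with their kinase Ripk2, the inflammasome sensors Nlrp3, Nlrp6 and Aim2, the adaptor Pycard (also called ASC), the inflammatory caspases Casp1 and Casp4 (mouse caspase-11), and the pore-forming protein Gsdmd. Members were all non-control array probes whose gene symbol, or the gene of whose RefSeq record, was on this list, and each gene was followed by its brightest probe. All 10 genes were present at both time points, with 14 probes of 56605 at day 0 and 12 probes of 55681 at day 7, among 24813 and 22372 named genes. Total colon tissue of male germ-free (GF) C57BL/6J mice, raised without any microbiota, was labelled GF Card9-/- (n = 7) or GF WT (n = 6) at day 0, before dextran sodium sulfate (DSS), and GF Card9-/- (n = 4) or GF WT (n = 4) at day 7 of drinking water with 2% DSS, a detergent-like polymer that injures the colon epithelium. All mice lacked a microbiota. The Card9 allele and the age of these mice are not given in the sources used here, the ages in the methods being those of mice used in other experiments. The comparison asks whether loss of Card9 alters the colon transcriptome without bacteria, before and after injury.

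NOD1 and NOD2 recognise fragments of bacterial peptidoglycan in the cytosol and signal through RIPK2 to NF-kB and the stress kinases, and CARD9 is a known partner of NOD2 in the stress-kinase branch. Inflammasome sensors respond to other triggers, with AIM2 binding cytosolic DNA and NLRP3 reacting to membrane damage and ion fluxes. They gather the adaptor PYCARD, which recruits caspase-1. Caspase-1 matures interleukin-1β and interleukin-18 and cleaves gasdermin D, whereas caspase-11 is activated by intracellular lipopolysaccharide and cleaves gasdermin D itself. In the gut NLRP6, PYCARD, caspase-1 and caspase-11 are prominent in the epithelium.

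Card9, the deleted gene, did not follow the labels. At day 0 its brightest probe read between 8.71 and 9.24 (normalized log2 signal) on the 7 arrays labelled GF Card9-/-, all well above background, and between 2.30 and 2.33 on the 6 arrays labelled GF WT, none well above background. A further Card9 probe of day 0 averaged 7.11 on the arrays labelled GF Card9-/- and 3.31 on those labelled GF WT. At day 7 the brightest Card9 probe was a different one. It read 7.995, 8.57, 7.93 and 8.02 on the arrays labelled GF Card9-/- 2, 2.1, 4 and 6, against 7.85, 2.39, 2.41 and 2.38 on those labelled GF WT 1, 4, 5 and 6. The gene was thus high where the labels call it deleted, and the array labelled GF WT replicate 1 at day 7 also carried it. Which part of Card9 was deleted is not given in the sources used here. Directions are therefore stated by array label only, as arrays labelled GF Card9-/- minus arrays labelled GF WT.

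The study holds 21 single-color Agilent arrays on 2 array designs, 1 for each day, so signals of day 0 and day 7 were not set against each other. Between 52.3% and 63.3% of probes were well above background on the day 0 arrays and between 40.6% and 55.7% on the day 7 arrays, and 0 probes were saturated. Marker genes of other tissues varied between arrays. The mean log2 signal of the tested pancreas enzyme genes (10 at day 0, 11 at day 7) was 17.5 on 1 day 0 array labelled GF Card9-/- (replicate 7) and at most 6.74 on those labelled GF WT, and at day 7 reached 15.7 on arrays labelled GF Card9-/- against 4.94 on those labelled GF WT. Smooth muscle genes ranged from 12.7 to 16.2 at day 0. The labels name no animals, so p-values measure the spread between these samples. The day 7 arrays labelled GF Card9-/- 2 and 2.1 could come from the same mouse, which would leave 3 mice for that label. The SD of their log2 difference over probes was 0.852, against 0.726 to 0.913 for the other pairs of that label. With both averaged as 1 sample 0 members were called, as with both kept apart. In whole tissue fewer cells of a type and less RNA per cell cannot be told apart.

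The probes decide what was read from each gene. For Nod2 and Nlrp6 no probe was common to both days, and for Aim2 the brightest probe of day 0 was not on the day 7 design. The Nod2 probe of day 0 started at base 4412 of its transcript record (chr8:91212170-91212224, plus strand, mm9) and that of day 7 at base 4492 (chr8:91212245-91212304). The Nlrp6 probes started at bases 2729 (chr7:148113385-148113444, plus strand) and 2823 (chr7:148113479-148113538). Their first 30 bases of 60 are shown because no common sequence links the days for these receptors:
Nod2, day 0: agcctttctttctgagcaaggtctttctgt
Nod2, day 7: acctccattttatttagcgtgaaagcgggt
Nlrp6, day 0: atcaaagccagatctgtccatcatatattc
Nlrp6, day 7: agaacacgatgaaagatgctgtagcccaaa

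Casp4 was read at day 7 by overlapping probes shifted by 5 bases (chr9:5336658-5336717 and chr9:5336663-5336722, plus strand), which share 55 of 60 bases and therefore count as 1 measurement made from nearly the same letters. The first 30 bases of each are shown, with bases held by both probes in capitals (the last 5 bases of the other probe, the only ones it does not share, lie beyond those shown):
Casp4, brightest probe: ccagcCTAAGCAACACAGTGGGATTCTGTT
Casp4, other probe: CTAAGCAACACAGTGGGATTCTGTTCCATA

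The full probes of 5 further members are shown because the adaptor and sensors below were read through them, and each holds a forward reading frame without a stop codon. The Ripk2 probe spans chr4:16059975-16065245 on the minus strand, so its 60 bases cross an intron. The others lie at chr11:59378554-59378613 (Nlrp3, plus), chr1:175385660-175385719 (Aim2, plus, day 0 only), chr7:135136241-135136300 (Pycard, minus) and chr15:75697536-75697595 (Gsdmd, plus):
Ripk2: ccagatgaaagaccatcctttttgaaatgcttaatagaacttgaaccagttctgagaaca
Nlrp3: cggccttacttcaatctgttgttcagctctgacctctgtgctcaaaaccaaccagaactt
Aim2: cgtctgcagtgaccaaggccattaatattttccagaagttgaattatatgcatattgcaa
Pycard: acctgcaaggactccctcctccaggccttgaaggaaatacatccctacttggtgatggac
Gsdmd: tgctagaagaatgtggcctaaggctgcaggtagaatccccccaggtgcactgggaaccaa

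In the uninjured germ-free colon, 9 of the 10 members were well above background on all 13 arrays, Nlrp3 being the exception. None of the 10 members was called between the labels at day 0 by limma at an adjusted p under 0.05, where 0.0253% of all tested probes were called. The labels overlapped for every member (0 of 10 without overlap, against 0.458% of all tested probes). At an unadjusted p under 0.05 there was 1 member, Nod2, against 5.84% of tested probes. The lowest adjusted p among the members was 0.726. All 10 intervals of the difference (95%) lay within 1 log2 unit of 0, 5 members lay above 0 and 5 below, and their median difference was 0.03 against 0.02 over all tested probes.

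**Figure D1:**
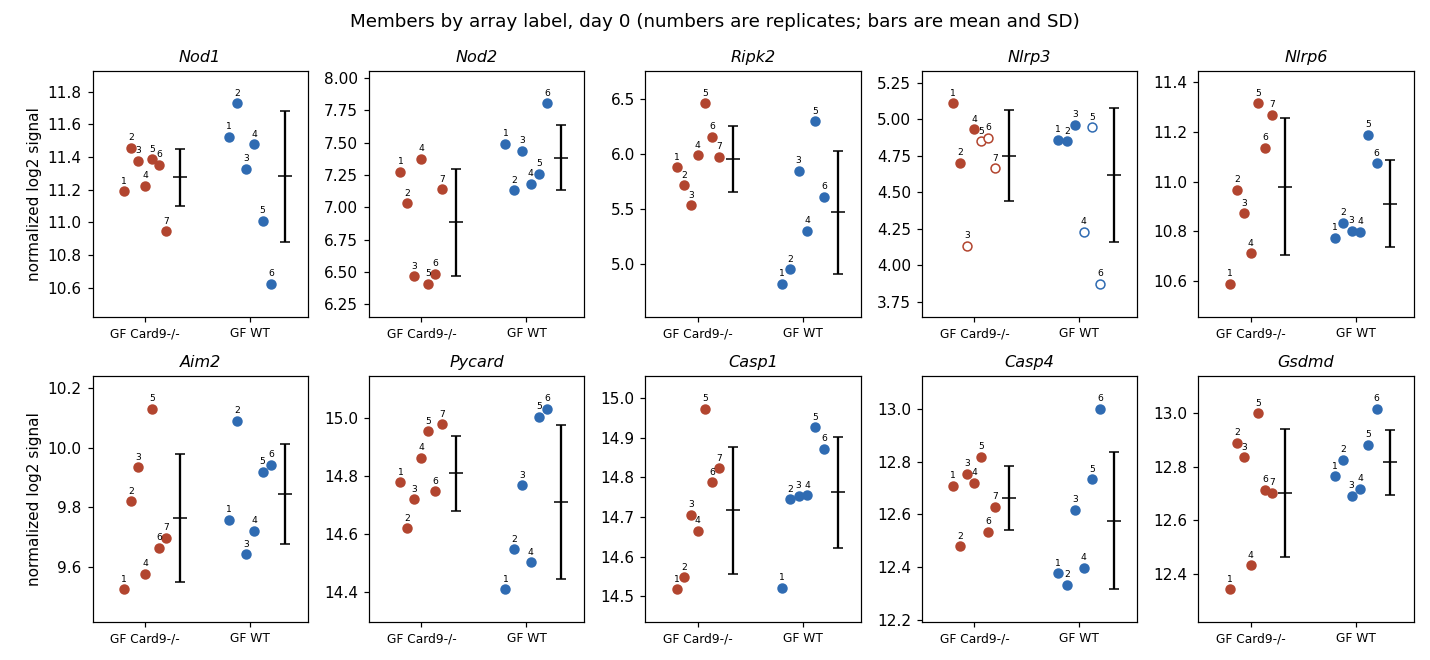
Normalized log2 signal of the 10 members at day 0, with 1 point for each array, its replicate number above it, open points for arrays where the probe was not well above background, and bars for the mean and SD of each label (7 arrays labelled GF Card9-/-, 6 labelled GF WT). Each vertical axis has its own range. The labels overlap in every panel, and Nod2 and Ripk2 show the widest separation of the means.

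Of the receptors, Nod1 differed by -0.0058 between the labels and Nod2 by -0.50. Nod1 read 10.94 at the lowest, 11.35 at the median and 11.46 at the highest on the arrays labelled GF Card9-/-, and 10.62, 11.40 and 11.73 on those labelled GF WT. Nod2 read 6.41, 7.03 and 7.38 on the arrays labelled GF Card9-/-, and 7.13, 7.35 and 7.80 on those labelled GF WT. Replicates 2, 3, 5 and 6 labelled GF Card9-/- lay below every array labelled GF WT for Nod2, while replicates 1, 4 and 7 lay within their range. The Nod2 difference was -0.50 ± 0.19 (SE, n = 7 and 6, a 1.42-fold lower signal, limma unadjusted p = 0.0200, adjusted p = 0.726, two-sided exact permutation p = 0.0332, where the smallest possible was 0.000583). It differed by slide: -1.36 on slide 4, -0.45 on slide 2, 0.02 on slide 3 and -0.35 on slide 1, and -0.24 without the 3 arrays of slide 4. The other Nod2 probe of day 0 (chr8:91210529-91210588) never rose well above background and was not tested.

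Ripk2, the kinase downstream of both receptors, read 5.53, 5.97 and 6.46 on the arrays labelled GF Card9-/- and 4.82, 5.45 and 6.30 on those labelled GF WT. The ranges overlapped, with replicates 1 and 2 labelled GF WT the lowest and replicate 5 labelled GF WT within the upper part of the other label. The difference was 0.49 ± 0.23 (SE), with an interval from -0.02 to 0.99 (limma adjusted p = 0.874, exact permutation p = 0.0752). By slide it was 0.36 on slide 3, -0.0003 on slide 2, 0.70 on slide 4 and 1.15 on slide 1. It was 0.38 and 0.54 within the 2 scan sessions, 0.36 without replicate 1 labelled GF WT, and 0.65 without replicate 5 of that label. Mean macrophage-gene signal ran from 8.63 to 10.6 on the arrays labelled GF Card9-/- and from 8.70 to 10.99 on those labelled GF WT, with all 13 macrophage genes lower on the arrays labelled GF Card9-/- and 0 of them called, and its part in the Nod2 and Ripk2 differences was not tested.

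Among the sensors, the DNA sensor Aim2 and the epithelial sensor Nlrp6 lay far above background and moved little. Nlrp6 read 10.59, 10.97 and 11.31 on the arrays labelled GF Card9-/- and 10.77, 10.82 and 11.19 on those labelled GF WT (difference 0.07 ± 0.13, SE, limma adjusted p = 0.955). Aim2 read 9.52, 9.70 and 10.13 against 9.64, 9.84 and 10.09, a difference of -0.08 ± 0.11, and its other probe, more than 10 kb further along the gene, gave 0.12 ± 0.14, so that its probes differed in sign. Nlrp3 was well above background on 3 of 7 arrays labelled GF Card9-/- and on 3 of 6 labelled GF WT. It read 4.13, 4.85 and 5.11 against 3.87, 4.86 and 4.96, a difference of 0.13 ± 0.21, which turned to -0.06 without slide 4.

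The adaptor, the caspases and the pore former varied little from array to array, with SDs between 0.15 and 0.20 over the 13 arrays. Pycard read 14.62, 14.78 and 14.98 on the arrays labelled GF Card9-/- and 14.41, 14.66 and 15.03 on those labelled GF WT (difference 0.10 ± 0.11, SE). A dim further probe listed under Pycard lies on the opposite strand (chr7:135140025-135140084, plus) and was read from a different transcript record, so it was set aside. It rose well above background on none of the 7 arrays labelled GF Card9-/- and on 1 of 6 labelled GF WT, with means of 3.44 and 4.08 (limma adjusted p = 0.793). Casp1 read 14.52, 14.71 and 14.97 against 14.52, 14.75 and 14.93, with an interval of the difference from -0.23 to 0.14. Casp4 read 12.48, 12.71 and 12.82 against 12.33, 12.51 and 13.002, a difference of 0.09 ± 0.11. Gsdmd read 12.34, 12.71 and 12.9996 against 12.69, 12.80 and 13.02 (difference -0.11 ± 0.11), and its other probe gave -0.15 ± 0.13. For all 4 genes the difference between the labels was smaller than the SD within either label.

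At day 7 of DSS, 7 of the 10 members were well above background on all 8 arrays, the others being Nod2, Ripk2 and Nlrp3. None of the 10 members was called, as were 0% of all tested probes (lowest adjusted p over all probes 0.312, over the members 0.913). Card9 itself was not called at day 7 either, at a difference of 4.37 ± 1.24 (SE, limma adjusted p = 0.913). A count of 0 called at day 7 therefore says little about the members. The labels overlapped for every member, against 2.12% of tested probes without overlap, and 0 of 10 members had an unadjusted p under 0.05, against 3.39% of tested probes. The members' median difference was 0.17, with 9 of 10 above 0, against 0.00133 and 50.5% above 0 over all tested probes. These signs depended on the fit. With a replicate block Ripk2, Nlrp3, Nlrp6, Aim2 and Pycard lay below 0, and with 75th percentile scaling Ripk2 and Nlrp3 did. With slide as a fixed term, which rests on 2 slides with 1 array of each label, Nod2, Ripk2, Aim2, Pycard and Casp4 did. The intervals were wider than before DSS, with 6 of 10 inside 1 log2 unit of 0. No gene of the 9 marker lists was called at day 7. The median difference was 5.34 over 11 pancreas genes, 1.23 over 8 adipocyte genes, 0.86 over 8 tested T cell genes, and between 0.31 and 0.32 over colonocyte, goblet cell, neutrophil, and B and plasma cell genes. It was 0.05 over macrophage genes and -0.45 over smooth muscle genes, as at day 0. The pancreas genes averaged 11.8 and 15.7 on replicates 2.1 and 6 labelled GF Card9-/-, and 5.08 and 6.68 on replicates 2 and 4 of that label. All 11 tested neutrophil genes lay above 0, with mean signals of 6.54 to 7.26 on the arrays labelled GF Card9-/- and 6.10 to 6.52 on those labelled GF WT. Mpo, Cxcr2 and Mmp9 were well above background on none of the arrays, as were Ltf and Mmp8, which were not tested. S100a8 (1.46) was so on 1 of 8 arrays, Retnlg (1.66) on 2 and S100a9 (1.65) on 5. The 5 neutrophil genes well above background on all 8 arrays gave between 0.06 (Ly6g) and 0.35 (Elane). The part of these lists in the members' values was not tested.

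**Figure D2:**
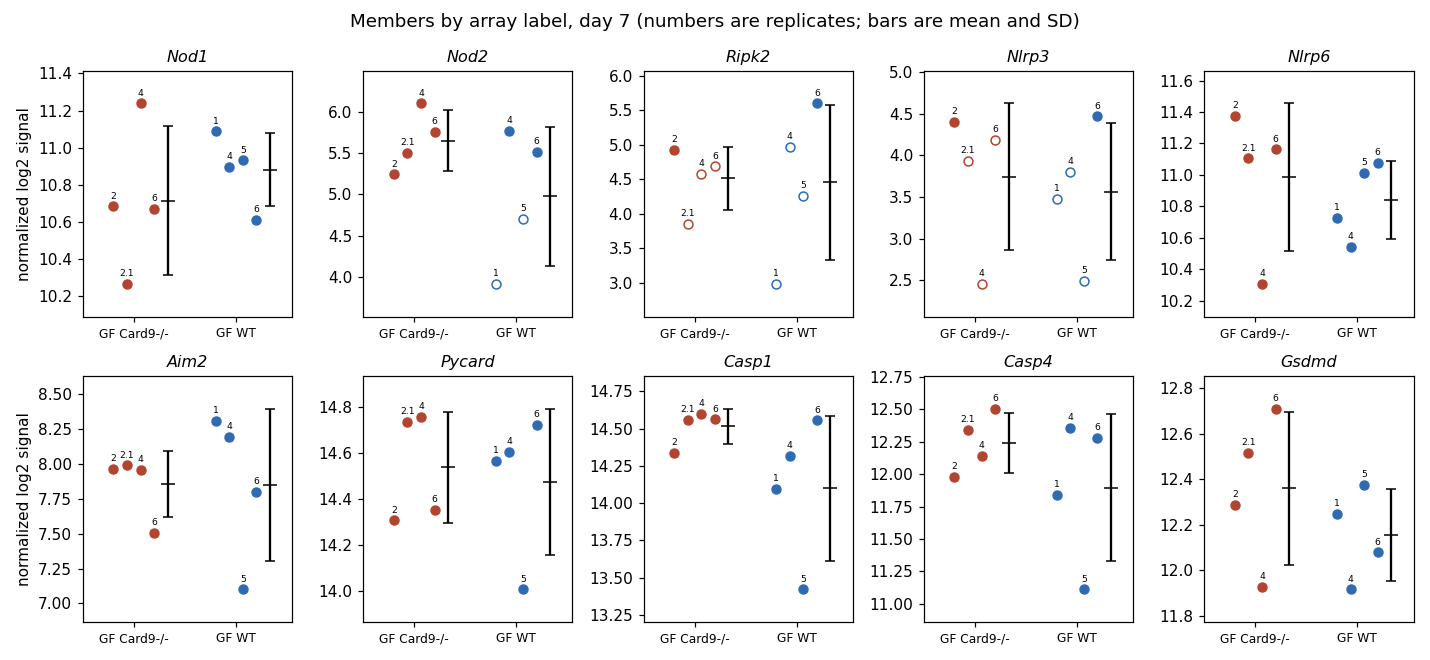
Normalized log2 signal of the 10 members at day 7 of DSS, drawn as for day 0 with 4 arrays labelled GF Card9-/- and 4 labelled GF WT. Replicate 5 labelled GF WT is the lowest array for Aim2, Pycard, Casp1 and Casp4, and replicate 1 labelled GF WT, which carries Card9 signal, is the lowest for Nod2 and Ripk2.

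Caspase-1 had the lowest exact p of the members after injury. Casp1 read 14.34, 14.56, 14.60 and 14.56 on the arrays labelled GF Card9-/- 2, 2.1, 4 and 6, and 14.10, 14.32, 13.42 and 14.55 on those labelled GF WT 1, 4, 5 and 6. The first label was tight and the second spread downward, and replicate 6 labelled GF WT lay among the arrays labelled GF Card9-/-. The difference was 0.42 ± 0.24 (SE, n = 4 and 4, 1.34-fold higher on the arrays labelled GF Card9-/-, interval -0.15 to 0.98, limma adjusted p = 0.913, exact permutation p = 0.0571, smallest possible 0.0286). It was 0.19 without replicate 5 labelled GF WT and 0.42 without replicate 1, and on the slides that held both labels it was -0.22 (slide 4) and 0.24 (slide 6), with 1 array of each label. The colonocyte genes, 13.5 on replicate 5 labelled GF WT and between 14.4 and 15.1 on the other 7 arrays, were lowest on the same array.

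Casp4 was likewise lowest on replicate 5 labelled GF WT. It read 11.98, 12.34, 12.14 and 12.51 on the arrays labelled GF Card9-/- and 11.84, 12.36, 11.11 and 12.28 on those labelled GF WT. Its difference was 0.35 ± 0.29 (limma adjusted p = 0.913), 0.36 by the overlapping probe, and 0.08 without replicate 5 labelled GF WT. On the slides that held both labels it was -0.30 (slide 4) and -0.011 (slide 6), opposite in sign. Pycard read 14.31, 14.74, 14.76 and 14.35 against 14.57, 14.61, 14.01 and 14.72, with the labels interleaved and a difference of 0.06 ± 0.20. Gsdmd, read by 10 spots on each day 7 array, gave 12.29, 12.52, 11.93 and 12.71 against 12.25, 11.92, 12.38 and 12.08. Here replicate 5 labelled GF WT was the highest of its label, opposite to its place for the caspases, and the difference was 0.21 ± 0.19, 0.089 without replicate 6 labelled GF Card9-/-, 0.35 without replicate 4 of that label, or -0.05 without the 2 arrays high in pancreas genes.

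Nod2 had the largest difference of the members at day 7, with an SD of 0.84 among the arrays labelled GF WT. It read 5.24, 5.50, 6.10 and 5.76 on the arrays labelled GF Card9-/-, all well above background, and 3.92, 5.77, 4.71 and 5.52 on those labelled GF WT, where 2 of 4 were. Replicates 4 and 6 labelled GF WT lay inside the other label, and replicates 1 and 5 below it. The difference was 0.67 ± 0.42 (limma adjusted p = 0.913, exact permutation p = 0.257), or 0.32 without replicate 1 labelled GF WT. On both slides that held the 2 labels it had the opposite sign, -0.27 on each of slides 4 and 6, with 1 array of each label. Its sign was also opposite to that of day 0, but through a different probe, and this change of sign was not tested.

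Ripk2 and Nlrp3 were close to background at day 7, each well above it on 1 of 4 arrays of either label. Ripk2 read 4.93, 3.86, 4.58 and 4.69 against 2.99, 4.97, 4.26 and 5.601, with a difference of 0.06 ± 0.55. This became -0.43 without replicate 1 labelled GF WT, which carries Card9 signal, and 0.44 without replicate 6 of that label. Nlrp3 read 4.40, 3.93, 2.45 and 4.18 against 3.48, 3.80, 2.49 and 4.47, with a difference of 0.18 ± 0.55 and no order of the labels. A further Nlrp3 probe at chr11:59379981-59380040 never rose well above background. The intervals of these dim genes ran from -1.23 to 1.35 and from -1.10 to 1.46, so differences above 1 log2 unit in either direction remained possible.

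The remaining sensors and Nod1 were bright at day 7. Nod1 read 10.68, 10.26, 11.24 and 10.67 on the arrays labelled GF Card9-/- and 11.09, 10.90, 10.93 and 10.61 on those labelled GF WT (difference -0.17 ± 0.22, the only member below 0, -0.017 without replicate 2.1 labelled GF Card9-/- and -0.34 without replicate 4 of that label). Nlrp6 read 11.37, 11.11, 10.31 and 11.16 against 10.73, 10.54, 11.01 and 11.08 (difference 0.15 ± 0.25, 0.019 without replicate 2 labelled GF Card9-/- and 0.37 without replicate 4 of that label). Aim2 read 7.96, 7.99, 7.96 and 7.50 against 8.31, 8.19, 7.10 and 7.80 (difference 0.00351 ± 0.28). The labels overlapped for all 3, and replicate 4 labelled GF Card9-/- was the highest array for Nod1 and the lowest for Nlrp6.

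**Figure D3:**
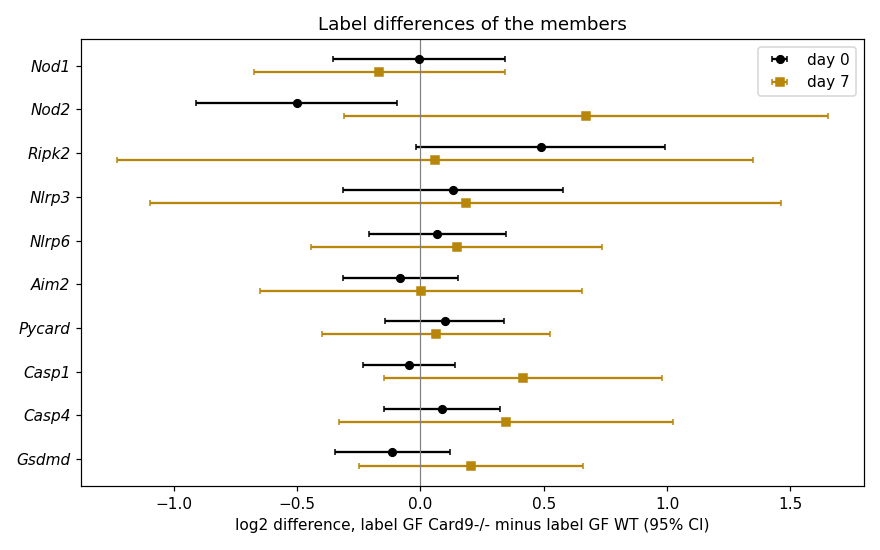
Log2 difference of each member between the array labels at day 0 (circles) and day 7 (squares), with 95% confidence intervals from limma. The intervals at day 7 are wider, and the dim genes Nod2, Ripk2 and Nlrp3 have the widest, while Nod2 at day 0 (-0.50) is the only interval that leaves out 0.

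Whether the label difference changed from day 0 to day 7 was tested on the probes that both array designs hold, which covered 8 of the 10 members and left out Nod2 and Nlrp6. The test takes any effect of the array design to be constant on the log2 scale. DSS and the design changed together, so their parts in such a change cannot be told apart. By limma 0 of the 8 were called, as were 0% of the 23624 shared probes tested. At an unadjusted p under 0.05 there was 1 of 8 members, Casp1, against 7.15% of shared probes. The Casp1 difference moved from -0.05 at day 0 to 0.42 at day 7, a change of 0.46 ± 0.22 (SE, adjusted p = 0.697), or 0.24 without replicate 5 labelled GF WT at day 7. Gsdmd changed by 0.32 ± 0.21. Casp4 changed by 0.26 ± 0.27, or -0.0025 without replicate 5 labelled GF WT at day 7. With the arrays labelled GF Card9-/- 2 and 2.1 averaged, the unadjusted p of Casp1 was 0.0528. Aim2 was followed here by its other day 0 probe, the only one common to both designs, which gave 0.12 at day 0. Ripk2 changed by -0.43 ± 0.54, and the changes of Nod1 (-0.16), Aim2 (-0.11), Pycard (-0.03) and Nlrp3 (0.05) were below their standard errors. Leaving out single day 7 arrays moved the change of Ripk2 between -0.92 (without replicate 1 labelled GF WT) and -0.047 (without replicate 6 of that label). It moved that of Nod1 between -0.34 and -0.011 (without replicates 4 and 2.1 labelled GF Card9-/-), and that of Gsdmd between 0.20 and 0.47 (without replicates 6 and 4 of the same label).

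Other genes of these pathways were taken from a list of 81: adaptors and regulators of NOD signalling, other cytosolic sensors, regulators of inflammasomes, and their substrates and effectors. Of these, 75 were tested at each day and none was called in either direction at either day. At an unadjusted p under 0.05, 1 was higher and 3 were lower on the arrays labelled GF Card9-/- at day 0, and 2 were higher and 0 lower at day 7, against 5.84% and 3.39% of all tested probes in either direction. Their median difference was 0.02 at day 0 and 0.09 at day 7, against 0.02 and 0.00133 over all tested probes. By group, the medians at day 0 were 0.0061 for NOD signalling (31 genes), 0.02 for other sensors (15), 0.0088 for inflammasome regulators (14) and 0.19 for substrates and effectors (15, of which 11 lay above 0). At day 7 they were -0.03 (31), 0.16 (16), 0.12 (14) and 0.14 (14, of which 10 lay above 0). The mean signal of the substrates and effectors at day 7 lay between 10.54 and 10.66 on the arrays labelled GF Card9-/- and between 10.36 and 10.42 on those labelled GF WT, without overlap. At day 0 these ranges overlapped (11.04 to 11.58 and 10.83 to 11.34). The mean signals of the neutrophil and pancreas marker lists did not overlap at day 7 either. These list means, and their change between the days, were not tested.

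The lowest p of these at day 0 was that of Tab1, an activating partner of the kinase TAK1 in this pathway. Tab1 lay between 12.05 and 12.27 on the arrays labelled GF Card9-/- and between 12.34 and 12.57 on those labelled GF WT, without overlap, a difference of -0.27 ± 0.05 (limma adjusted p = 0.154). Of all tested probes, 0.458% had no overlap at day 0. Irf1, an interferon-induced transcription factor that raises inflammasome genes, gave -0.24 ± 0.08 and Cyld, a deubiquitinase that restrains RIPK2 signalling, -0.16 ± 0.06. On the other side, Casp8 gave 0.20 ± 0.11, the deubiquitinase Otulin 0.15 ± 0.07 and Tab3 0.14 ± 0.07, and none of these passed the adjusted threshold.

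At day 7 the lowest p belonged to Nlrc5, the transactivator of MHC class I genes. Nlrc5 lay between 7.33 and 8.39 on the arrays labelled GF Card9-/- and between 6.46 and 6.77 on those labelled GF WT, without overlap (difference 1.21 ± 0.25, limma adjusted p = 0.913). Of all tested probes, 2.12% had no overlap at day 7. Il18bp, the decoy that binds interleukin-18, lay between 8.08 and 9.70 against 7.42 and 7.97 (difference 0.90 ± 0.35), and Irf8 gave 0.30 ± 0.13. Lower on the arrays labelled GF Card9-/- were Hmgb1 at -0.56 ± 0.39, Ikbkg at -0.43 ± 0.28 and Nfkbia at -0.25 ± 0.17, none past the threshold. The caspase-1 substrates Il1b and Il18 gave 0.09 ± 0.41 and 0.11 ± 0.20.

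The members varied from array to array, and not independently of each other. Across the 13 day 0 arrays, 135 relations were examined: 45 between pairs of members and 90 between a member and the mean log2 signal of a marker list. By permutation, with p adjusted over all 135, 6 pairs passed, 4 positive and 2 negative, as did 10 relations with lists, 1 positive and 9 negative. The arrays share slides and a common normalization, and the relations say nothing of the cells in which a gene is active. How often other genes on these arrays are related as strongly was not computed, so the counts are not particular to the members.

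**Figure D4:**
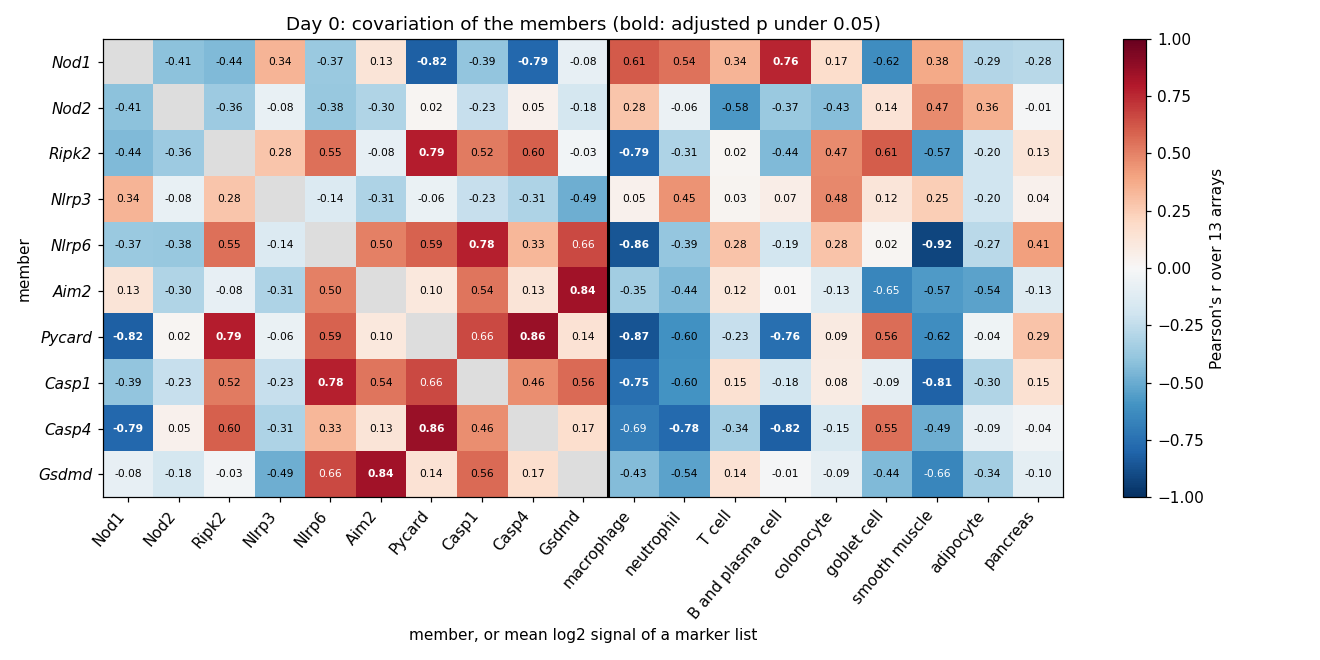
Pearson's r over the 13 day 0 arrays between each member (rows) and each member or marker list (columns, separated by the black line), red for positive and blue for negative values. Bold values have a permutation p, adjusted over 135 relations, under 0.05. Among the members, bold positive values join Pycard with Casp4 and with Ripk2, Nlrp6 with Casp1, and Aim2 with Gsdmd. These pairs are not set apart from each other, as Pycard with Casp1 and Nlrp6 with Gsdmd reach 0.66 without being bold, against 0.60 for Ripk2 with Casp4, also not bold. Nod1 runs opposite to Pycard and Casp4, and Nod2 and Nlrp3 have no bold value.

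Nlrp6 had the strongest relation of all, an inverse relation with smooth muscle genes. Its signal fell from 11.31 on replicate 5 labelled GF Card9-/-, where smooth muscle genes averaged 12.7, to 10.59 on replicate 1 of the same label, where they averaged 16.2. Over 13 arrays r was -0.92 and rho -0.92 (permutation p = 3e-05 for each, adjusted p = 0.00405). Without the 2 arrays farthest from the median r was -0.89, within the 2 scan sessions it was -0.89 (n = 6) and -0.98 (n = 7), and within the labels -0.93 and -0.91. Nlrp6 also ran against macrophage genes, with r = -0.86 and rho = -0.81 (permutation p = 0.00019 and 0.00113, adjusted p = 0.00810 and 0.0201), -0.77 without the 2 farthest arrays and -0.92 and -0.86 within the sessions. At day 7 the relation of Nlrp6 with smooth muscle genes was -0.27 over 8 arrays (exact permutation p = 0.517), through the other probe.

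Casp1 went with Nlrp6 (r = 0.78, rho = 0.82, permutation p = 0.00181 and 0.00096, adjusted p = 0.0199 and 0.0201), with r = 0.69 without the 2 farthest arrays and 0.72 and 0.92 within the sessions. It shared the inverse relation with smooth muscle genes (r = -0.81, rho = -0.81, permutation p = 0.00079 and 0.00117, adjusted p = 0.0137 and 0.0201, -0.78 without the 2 farthest arrays, -0.87 and -0.86 within the sessions). With macrophage genes r was -0.75 and rho -0.70 (permutation p = 0.00381 and 0.00949, adjusted p = 0.0321 and 0.0712), with r = -0.54 without the 2 farthest arrays, -0.77 and -0.76 within the sessions, and -0.96 and -0.77 within the labels. This last relation stayed under the adjusted threshold in 10 of 16 alternatives.

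The adaptor Pycard went with Casp4. Their r was 0.86 and rho 0.81 (permutation p = 0.00019 and 0.00119, adjusted p = 0.00810 and 0.0201), 0.83 without the 2 farthest arrays and 0.79 and 0.96 within the sessions. Replicates 1, 2 and 4 labelled GF WT were low for both genes and replicate 6 labelled GF WT was the highest for both. Pycard also had r = 0.66 with Casp1 and 0.59 with Nlrp6, which did not pass (adjusted permutation p = 0.0975 and 0.166). Ripk2 went with Pycard (r = 0.79, rho = 0.70, permutation p = 0.00138 and 0.0103, adjusted p = 0.0185 and 0.0733), with r = 0.64 without the 2 farthest arrays and 0.93 and 0.50 within the sessions. Macrophage genes ran against Pycard at r = -0.87 (rho = -0.81, permutation p = 0.00037 and 0.00160, adjusted p = 0.00999 and 0.0227, -0.86 without the 2 farthest arrays, -0.97 and -0.80 within the sessions). They ran against Ripk2 at r = -0.79 (rho = -0.76, permutation p = 0.00151 and 0.00356, adjusted p = 0.0185 and 0.0356, -0.65 without the 2 farthest arrays, -0.95 and -0.72 within the sessions).

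B and plasma cell genes passed with Casp4, Pycard and Nod1. They ran against Casp4 (r = -0.82, rho = -0.81, permutation p = 0.00081 and 0.00168, adjusted p = 0.0137 and 0.0227) and Pycard (r = -0.76, rho = -0.86, permutation p = 0.00337 and 0.00039, adjusted p = 0.0303 and 0.0132), and with Nod1 (r = 0.76, rho = 0.77, permutation p = 0.00197 and 0.00302, adjusted p = 0.0199 and 0.0340). Without the 2 farthest arrays these were -0.82, -0.81 and 0.79. Within the sessions they were -0.78 and -0.90 for Casp4, -0.80 and -0.83 for Pycard, and 0.95 and 0.70 for Nod1. The relation with Pycard stayed under the adjusted threshold in 11 of 16 alternatives. Neutrophil genes ran against Casp4 (r = -0.78, rho = -0.75, permutation p = 0.00206 and 0.00473, adjusted p = 0.0199 and 0.0426, -0.60 without the 2 farthest arrays, -0.82 and -0.78 within the sessions).

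Nod1 ran opposite to Pycard and Casp4. Its r with Pycard was -0.82 and rho -0.89 (permutation p = 0.00052 and 9e-05, adjusted p = 0.0117 and 0.00405), -0.85 without the 2 farthest arrays and -0.91 and -0.69 within the sessions. With Casp4 r was -0.79 and rho -0.69 (permutation p = 0.00132 and 0.0109, adjusted p = 0.0185 and 0.0735), with r = -0.52 without the 2 farthest arrays and -0.76 and -0.81 within the sessions. Within the labels r was -0.096 over the 7 arrays labelled GF Card9-/- and -0.98 over the 6 labelled GF WT. Replicate 6 labelled GF WT was the lowest array for Nod1 and the highest for Pycard and Casp4.

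Aim2 and Gsdmd varied together. Their r was 0.84 and rho 0.91 (permutation p = 0.00024 and 6e-05, adjusted p = 0.00810 and 0.00405), 0.80 without the 2 farthest arrays, and 0.56 and 0.91 within the sessions. Replicates 1 and 4 labelled GF Card9-/- were the lowest for both genes. Nod2 and Nlrp3 passed with no other member and no list, the strongest relation of Nod2 being that with T cell genes (r = -0.58, adjusted permutation p = 0.166).

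**Figure D5:**
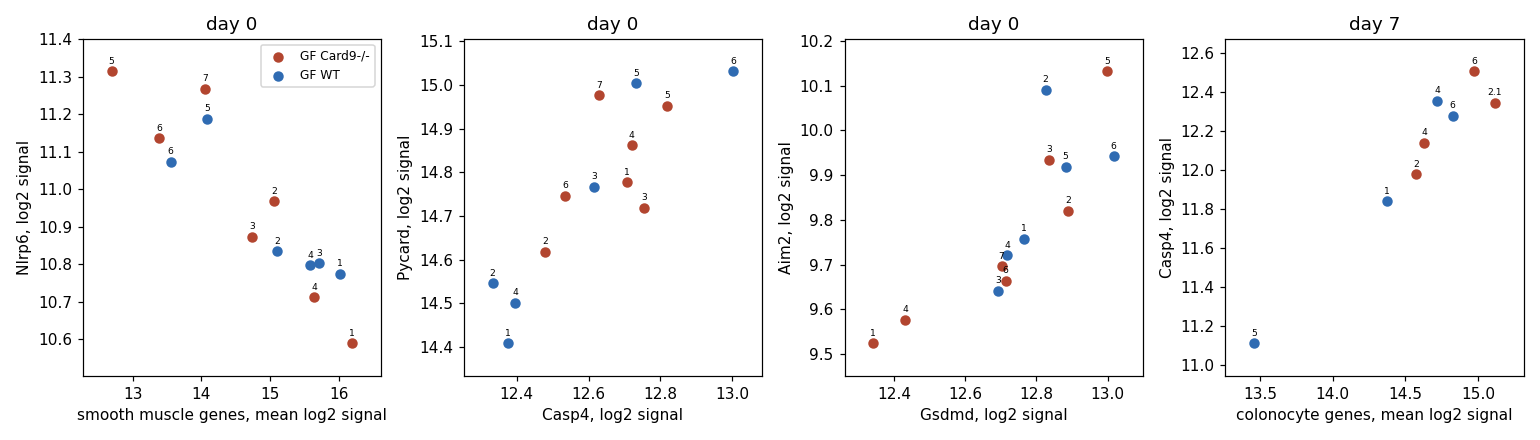
Array by array relations of Nlrp6 with the mean log2 signal of smooth muscle genes, of Pycard with Casp4 and of Aim2 with Gsdmd at day 0 (13 arrays), and of Casp4 with the mean log2 signal of colonocyte genes at day 7 (8 arrays), in log2 signal, with points colored by label and numbered by replicate. Arrays of both labels lie along the same trend in each panel, and in the last panel replicate 5 labelled GF WT lies far from the other 7.

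At day 7 the caspases varied with epithelial genes and, for Casp1, with adipocyte genes. Of 135 relations over the 8 arrays, 0 of 45 pairs and 3 of 90 relations with lists passed by exact permutation, all 3 positive and all 3 of a caspase, and by rho none did. Casp4 went with colonocyte genes (r = 0.97, rho = 0.88, exact p = 0.000620 and 0.00724, adjusted p = 0.0446 and 0.489). Without the 2 farthest arrays r was 0.95, and with any 1 array left out it was at least 0.87, though the adjusted p stayed under the threshold in 2 of 11 alternatives. Casp1 went with goblet cell genes (r = 0.94, rho = 0.88, exact p = 0.000794 and 0.00724, adjusted p = 0.0446 and 0.489, r = 0.81 without the 2 farthest arrays). It also went with adipocyte genes (r = 0.85, rho = 0.79, exact p = 0.000992 and 0.0279, adjusted p = 0.0446 and 0.562, r = 0.79 without the 2 farthest arrays). These Casp1 relations stayed under the adjusted threshold in 3 (goblet cell) and 2 (adipocyte) of 11 alternatives.

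With colonocyte genes at day 7, Casp1 had r = 0.95 but did not pass (exact p = 0.00295, adjusted p = 0.0797). Other members had r of 0.73 (Pycard), 0.08 (Gsdmd) and 0.07 (Nlrp6). At day 0 no member passed with colonocyte genes, Casp4 at -0.15 and Casp1 at 0.08. Colonocyte genes spread from 14.7 to 15.5 at day 0 and from 13.5 to 15.1 at day 7. All 8 day 7 arrays were scanned in 1 session, and their slides held at most 2 arrays each, so no relation within a batch could be given.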

How the data were processed

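Total RNA of whole colon (RNA integrity number above 9, per the labels) was hybridised to single-color Agilent arrays, 1 design for day 0 and another for day 7, annotated on mm9. The deposited files hold the scanner's processed intensity per spot, background-subtracted by Agilent Feature Extraction 10.7.3.1 per the labels, with its p-value for signal above background and its flags. The authors' normalized log2 values were also deposited and served as an alternative.

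Here the processed intensity was taken to log2 and quantile normalized within each day over all spots, then control probes and outlier spots were left out, with repeated spots of the same probe averaged. Testing was limited to probes with a detection p under 0.05 on at least 60% of the arrays of 1 label, as in the study's methods. Labels were compared with limma 3.58.1 in R 4.3.3 (lmFit, eBayes, two-sided), with Benjamini-Hochberg adjustment over all 47400 tested probes at day 0 and 44624 at day 7. The difference between the days was fitted on the 23624 probes tested at both days that carry the same sequence. Single values were compared by exact permutation of the labels. Relations across arrays used 100000 permutations (day 0, smallest p 1e-05) or all 40320 orders (day 7, smallest p 2.48e-05). Probes were named through RefSeq records, or else by the file's symbol. The text names all members, and of the other pathway genes the 3 with the lowest p in each direction at each day, and, chosen after their values were seen, Il1b and Il18.

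The members and gene lists were chosen with earlier results of these data known. On data simulated from these arrays, the day 0 fit called 52% of changes of 1 log2 unit and 84% of changes of 2, and the day 7 fit 19% and 48%. Precision is limited by how many arrays each label has.

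Alternatives were another scaling, background correction, the authors' table, detection filters, a floor for dim values, other probes of a gene, slide, scan session or replicate number as a block, and leaving out each array. The relations across arrays, and the fits without arrays high in pancreas genes or without slide 4, with slide as a fixed term at day 7, and with the day 7 arrays labelled GF Card9-/- 2 and 2.1 averaged, were added after seeing the data.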

Additional observations from a re-analysis of the deposited data

Results flagged for a closer look

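Of 40 groups of 4 to 7 arrays examined (10 members, 2 labels, 2 days), 2 held an array that stood apart from the rest of its label by Dixon's criterion, and chance alone gives about 1 in 20. Both were among the 4 arrays labelled GF Card9-/- at day 7. Aim2 read 7.50 on replicate 6, against 7.96 for the nearest other array. Casp1 read 14.34 on replicate 2, against 14.56 for the nearest other array.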

How the results depend on the processing

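The counts of called members, of called pathway genes and of members whose label difference changed between the days were 0 under each of the 119 alternative values computed, and no member's adjusted p fell below 0.294 under any alternative. The day 7 counts say little, as the main day 7 fit did not call Card9 itself. Of 661 recomputed differences of single members, 77 turned sign, each of a member that was not called, and the cause was not tested. Same-numbered arrays deviated together at correlations between -0.02 and 0.37 at day 0, and of 0.11 and 0.03 at day 7. Differently numbered arrays were not set beside them, so these values cannot settle whether the replicate numbers pair the arrays. With a replicate block, 0 members were called at either day, and Nod1 became 0.050 at day 0 and 0.20 at day 7, and at day 7 Ripk2 -0.65, Nlrp3 -0.82, Nlrp6 -0.076, Aim2 -0.27 and Pycard -0.11. With 75th percentile scaling, Nod1 was 0.017, Casp1 0.021 and Nlrp3 -0.0059 at day 0, Ripk2 -0.12 and Nlrp3 -0.068 at day 7, and the change of Nlrp3 between the days -0.062. With normexp background correction, Ripk2 was -0.001, Nlrp3 -0.013 and Aim2 -0.018 at day 7, and the change of Nlrp3 was -0.04. In the authors' table Nlrp3 was -0.0078 at day 7 and its change -0.051. With dim values raised to a floor Ripk2 was -0.35 and Nlrp3 -0.031 at day 7, and the change of Nlrp3 -0.11. With slide as a block Nod1 was 0.019 at day 0 (fixed term) and Ripk2 -0.0064 at day 7 (random block, correlation 0.128). With slide as a fixed term at day 7, which rests on the 2 slides that held both labels, Nod2 was -0.27, Ripk2 -0.89, Aim2 -0.019, Pycard -0.14 and Casp4 -0.16, and Casp1, still above 0, was 0.012. At day 0, with scan session as a block Nod1 was 0.0024. Over all tested probes of a gene, Aim2 was 0.018 and Pycard -0.27 at day 0, the latter through the dim opposite-strand probe. Without the arrays high in pancreas genes Nod1 was 0.050 at day 0 and 0.080 at day 7, Nlrp3 -0.13 and Gsdmd -0.047 at day 7, and without slide 4 Nlrp3 was -0.062 at day 0. With the day 7 arrays labelled GF Card9-/- 2 and 2.1 averaged, Aim2 was -0.038 and the change of Nlrp3 -0.091.

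Leaving out each array in turn spanned 0 for Nod1 (-0.14 to 0.084) and Nlrp3 (-0.018 to 0.24) at day 0, for Ripk2 (-0.43 to 0.44), Nlrp3 (-0.17 to 0.61), Aim2 (-0.25 to 0.16) and Pycard (-0.092 to 0.15) at day 7, and for the change between the days of Pycard (-0.19 to 0.048), Casp4 (-0.0025 to 0.41), Aim2 (-0.36 to 0.039) and Nlrp3 (-0.30 to 0.48). Without GF Card9-/- replicate 2.1 at day 7, Aim2 was -0.042 and Pycard -0.0024, and the change of Nlrp3 was -0.012. Nod2 at day 0 kept its sign under all 24 alternatives (-0.58 to -0.24), as did Ripk2 at day 0 (0.18 to 0.65) and, under 19 alternatives, Casp1 at day 7 (0.012 to 0.57). Differences under 0.2 that kept their sign with each array left out still moved with single arrays at day 0, Nlrp6 between 0.013 and 0.13, Aim2 between -0.14 and -0.032, Pycard between 0.038 and 0.16, Casp1 between -0.093 and -0.012, Casp4 between 0.039 and 0.17, and Gsdmd between -0.16 and -0.055. Of these, Aim2, Pycard and Casp1 turned sign under another alternative, as given above. The 16 relations across arrays at day 0 kept their sign in 256 alternative values and passed the adjusted threshold in 233 of them. The 3 relations at day 7 kept their sign in 33 values and passed in 7. Dim signals limit Ripk2, Nlrp3 and, at day 7, Nod2.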
